A study of Mus musculus with 3 samples.

Results

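Homologous recombination and Fanconi repair genes were described in mouse liver that expressed human YAP. The set held 38 genes, listed by name for their roles in the repair of broken and crosslinked DNA. The list was made with earlier results of these data known, so the shares below are descriptions of it. A probe could be named for 37 of them, and 34 were measured on all 3 arrays, among 13626 named genes measured on all 3. Homologous recombination repairs a double-strand break by copying an intact sister DNA molecule, and it works mainly in cells that replicate their DNA. The Fanconi proteins detect and unhook crosslinks between the DNA strands at stalled replication forks and pass the resulting break to the recombination proteins. Most hepatocytes of an adult liver are quiescent, and many genes of both pathways are transcribed mainly in cycling cells.

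RNA levels were read on one-colour Agilent arrays to compare livers with active and wild-type YAP, with 1 array for each of 3 groups and the time label 2 days. All livers came from young adult male C57BL/6J mice that received plasmid DNA by hydrodynamic tail vein injection (HTVi), a rapid high-volume injection that itself injures the liver. The plasmid coded for human YAP, either the wild-type form (WT) or one of the active mutants 1SA and 2SA, in which serines that are phosphorylated through the Hippo pathway are replaced by alanine. YAP is the transcriptional coactivator that the Hippo pathway holds back. The vector drives expression by an AFP enhancer and an albumin promoter, which are active in hepatocytes, and HTVi reaches only some of them, so each liver was a mosaic of transfected and untransfected cells. No uninjected liver was compared, and the number of animals behind each RNA was not stated. The transgene is human, so the probes for mouse genes gave no check of the labels. With 1 array per group there was no spread between animals, no test was run, and every difference below compares single arrays.

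Intensities are given as deposited, on a linear scale. Differences are in log2 units after each array was scaled to its 75th percentile, which was 291 for YAP (WT), 276 for YAP (1SA) and 319 for YAP (2SA), so the ratio of intensities and the scaled difference are not identical. The only repeat measurement was between spots of the same probe on an array. Its SD for a difference between arrays was 0.10 over all probes with repeated spots, and it ranged from 0.08 for the brightest probes to 0.33 for the dimmest. Of the 34 genes, 28 had a probe signal under the median of all named genes, and the spot SD of a difference was at most 0.14 for 23 genes, 0.20 for 8 and 0.33 for 3 (Palb2, Fancg and Chek1). That error leaves out the spread between animals.

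The upstream sequences of the genes are shown because E2F sites are a known route by which repair genes follow the cell cycle, and the genes with the largest differences can be set beside genes that hold such a site. RefSeq promoter windows (GRCm38.p6) matched 29 of the 38 genes. The search used the E2F-type letters TTTCCCGC, TTTGGCGC, TTTCGCGC and TTTGCCGC and the cell cycle homology region (CHR) TTTGAA, each on both strands, in windows of 250 bases before to 50 bases after the start. An E2F-type match lay in 7 of the 29 genes (24.1%), compared with 2.6% of all 27025 genes in the table and 4.31% of the 10869 genes that had a window and were measured here. A CHR match lay in 2 of the 29 genes (6.9%), compared with 20.2% of all genes and 15.0% of the measured genes with a window. No window of the set held overlapping matches of both motifs. The stretches below end at the base before the start, run 5′ to 3′ on the strand of the gene, and have the E2F-type match in capitals. They cover chr6:126939588-126939767 (minus strand) for Rad51ap1, chr8:123318577-123318756 (minus strand) for Fanca, chrX:164980412-164980591 (plus strand) for Fancb, chr5:150522441-150522620 (plus strand) for Brca2 and chr4:43010302-43010481 (minus strand) for Fancg.
Rad51ap1: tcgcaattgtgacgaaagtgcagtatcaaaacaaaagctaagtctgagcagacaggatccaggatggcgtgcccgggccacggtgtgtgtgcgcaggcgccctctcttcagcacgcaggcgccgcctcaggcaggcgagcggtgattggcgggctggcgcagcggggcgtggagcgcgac
Fanca: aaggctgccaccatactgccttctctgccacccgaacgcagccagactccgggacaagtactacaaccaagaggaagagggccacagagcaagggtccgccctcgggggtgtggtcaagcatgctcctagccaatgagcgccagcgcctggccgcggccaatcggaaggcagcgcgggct
Fancb: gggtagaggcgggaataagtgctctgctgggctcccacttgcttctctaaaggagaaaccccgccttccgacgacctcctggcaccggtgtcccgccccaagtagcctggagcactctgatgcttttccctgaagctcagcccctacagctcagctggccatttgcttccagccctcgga
Brca2: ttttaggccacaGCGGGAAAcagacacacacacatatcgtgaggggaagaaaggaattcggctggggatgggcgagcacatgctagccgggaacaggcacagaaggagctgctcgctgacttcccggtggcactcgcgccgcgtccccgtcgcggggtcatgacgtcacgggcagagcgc
Fancg: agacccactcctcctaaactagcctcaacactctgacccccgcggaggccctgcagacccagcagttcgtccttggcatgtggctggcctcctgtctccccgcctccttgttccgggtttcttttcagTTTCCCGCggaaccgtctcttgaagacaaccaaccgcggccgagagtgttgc
Rad51ap1, Fanca and Fancb, which had the largest differences between YAP (2SA) and YAP (WT), held no E2F-type match in the whole window. Brca2 held one that begins 168 bases before the start, and Fancg held one that begins 52 bases before it. The other genes with a match were Bard1, Chek2, Clspn, Msh6 and Rad51c. Among the 5 measured genes with a match, the median difference between YAP (2SA) and YAP (WT) was 0.23, and 1 gene, Brca2, was at least 1.5-fold higher. Among the 21 measured genes whose window had no match, the median was 0.28 and 6 were at least 1.5-fold higher. Of all genes, 3.79% were past this fold. Bard1 counts here by its brighter probe at -0.10, and its second measured probe gave 0.95. The order of these medians depends on which Bard1 probe is used. Clspn and Rad51c were not measured on all 3 arrays and are left out. A match describes letters only, and a window without one says nothing of the factor.

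Most of the measured genes were higher in both active YAP livers than in the YAP (WT) liver, by small amounts. The median difference over the 34 genes was 0.23 for YAP (1SA) and 0.26 for YAP (2SA), beside medians of -0.0017 and -0.03 over all named genes. In YAP (1SA), 25 of the 34 genes were above YAP (WT), compared with 49.7% of all genes. In YAP (2SA), 27 of 34 were above YAP (WT), compared with 43.6% of all genes.

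At least 1.5-fold higher in YAP (1SA) were 5 of 34 genes (14.7%), namely Rad51ap1, Chek1, Fanca, Fanci and Brip1, compared with 3.08% of all genes. Fanci and Brip1 lay at the threshold, both with a log2 difference of 0.59. At least 1.5-fold higher in YAP (2SA) were 10 of 34 (29.4%), compared with 3.79% of all genes. These were Rad51ap1, Fanca, Fancb, Xrcc2, Exo1, Brca2, Blm, Rad54l, Rad54b and Fanci. None of the 34 was 1.5-fold lower in either active YAP liver, where 4.67% of all genes were lower in YAP (1SA) and 3.02% in YAP (2SA). With a 2-fold threshold, 2 genes were higher in YAP (1SA) (Rad51ap1 and Chek1) beside 0.727% of all genes, and 4 in YAP (2SA) (Rad51ap1, Fanca, Fancb and Xrcc2) beside 1.12%. Both comparisons share the YAP (WT) array. The genes past 1.5-fold all had probe signals under the median of all named genes, where 4.17% of all genes were higher in YAP (1SA) and 5.45% in YAP (2SA). A stricter filter on dim probes left 9 genes, of which 0 were past 1.5-fold on either array, and the median in YAP (2SA) was then 0.082. The normexp setting, which starts from the raw spot and local background signals and adds an offset, left 1 gene in YAP (1SA) beside 1.44% of all genes and 4 in YAP (2SA) beside 2.01%.

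Between the active mutants, the share of genes past the threshold was close to that of all genes. The median of YAP (2SA) minus YAP (1SA) was 0.12, beside -0.03 for all genes, and 23 of 34 genes were above 0, compared with 45.6% of all genes. Fancb, Xrcc2 and Exo1 were at least 1.5-fold higher in YAP (2SA), which is 3 of 34 (8.82%) beside 6.99% of all genes. Chek1 was the only one of the 34 that was 1.5-fold lower, beside 4.56% of all genes. None was 2-fold higher, beside 2.47% of all genes. Under the authors' own scaling in the series matrix, 5 of the 34 were 1.5-fold higher beside 8.34% of all genes, and of all genes past 1.5-fold the higher share was 71.0% in place of 60.5%.

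**Figure D1:**
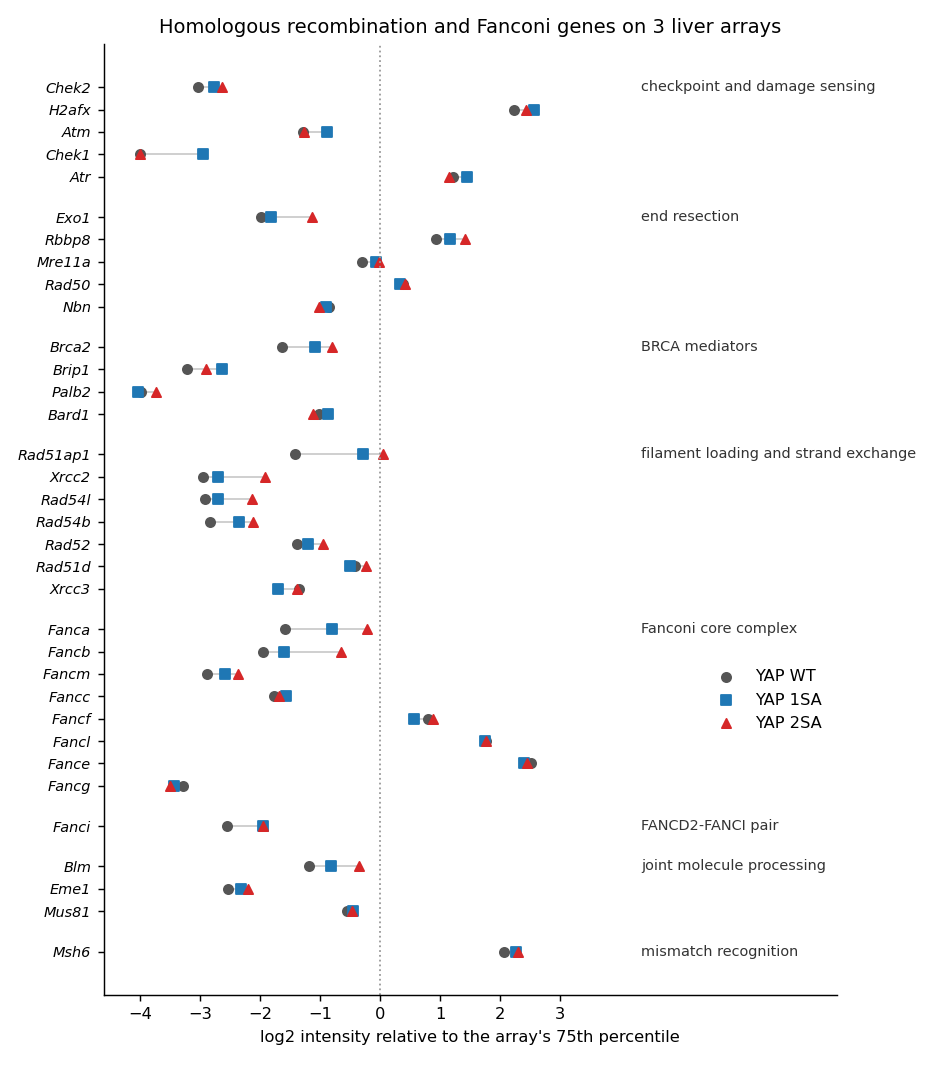
Normalised log2 intensity (x axis, 0 is the 75th percentile of the array) of the 34 genes measured on all 3 arrays, grouped by role, with 1 symbol per array and a grey line over the range of each gene. The YAP (2SA) symbol of Rad51ap1, Fanca, Fancb, Xrcc2 and Exo1 lies to the right of the other arrays, Chek1 stands apart on YAP (1SA), and Rad50, Fancl and Mus81 nearly coincide. Positions of different genes are not comparable as amounts of RNA, since each probe binds differently.

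The genes of filament loading and strand exchange, the steps that pair the broken DNA with the intact copy, had the highest median in YAP (2SA) among the role groups. All 7 measured members of the group were higher in YAP (2SA) than in YAP (1SA), with a median of 0.31, and 6 of 7 were above YAP (WT), with a median of 0.71. The median of YAP (1SA) minus YAP (WT) was 0.22 and 5 of 7 were above 0.

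Rad51ap1, which codes for a protein that promotes joint molecule formation, had intensities of 109, 227 and 330 in YAP (WT), YAP (1SA) and YAP (2SA). After scaling it was 2.21-fold higher in YAP (1SA) and 2.76-fold higher in YAP (2SA) than in YAP (WT), with log2 differences of 1.14 and 1.47 and a spot SD of 0.12. Both active YAP arrays were high, and the step from YAP (1SA) to YAP (2SA) was 0.32.

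Xrcc2 and Rad51d code for proteins that help the recombination filament form on single-stranded DNA. Xrcc2 read 37.7, 42.2 and 84.6, which gave 0.24 for YAP (1SA) and 1.03 for YAP (2SA), with a spot SD of 0.20. Rad51d read 217, 196 and 270 with its brighter probe, which gave -0.07 and 0.18. Xrcc2 was therefore high on the YAP (2SA) array alone, while the difference of Rad51d in YAP (1SA) was within the spot error. Xrcc3, of the same protein family, read 114, 85.0 and 122, with differences of -0.35 and -0.05, and was lowest in YAP (1SA). Rad51c, also of this family, had no probe named through the gene table.

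Rad54l and Rad54b code for motor proteins that act in strand exchange. Rad54l had intensities of 38.5, 42.5 and 72.8 and differences of 0.22 and 0.78. Rad54b had intensities of 40.9, 53.9 and 73.6 and differences of 0.48 and 0.71. Both were higher in YAP (2SA) than in YAP (1SA), by 0.56 and 0.24, and their spot SD was 0.20.

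Rad52, a single-strand annealing protein, was spotted 10 times on each array and had the smallest spot SD of a difference in the set, 0.04. Its kept spots ranged from 106 to 120 in YAP (WT), from 115 to 128 in YAP (1SA) and from 156 to 178 in YAP (2SA). The spots of YAP (2SA) did not overlap those of the other arrays. The mean normalised values were -1.38 ± 0.07 (SD of 9 spots), -1.20 ± 0.05 (SD of 9 spots) and -0.94 ± 0.07 (SD of 10 spots). The differences from YAP (WT) were 0.18 in YAP (1SA) and 0.44 in YAP (2SA). Spots of an array hold the same RNA and are not replicates of a liver.

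**Figure D2:**
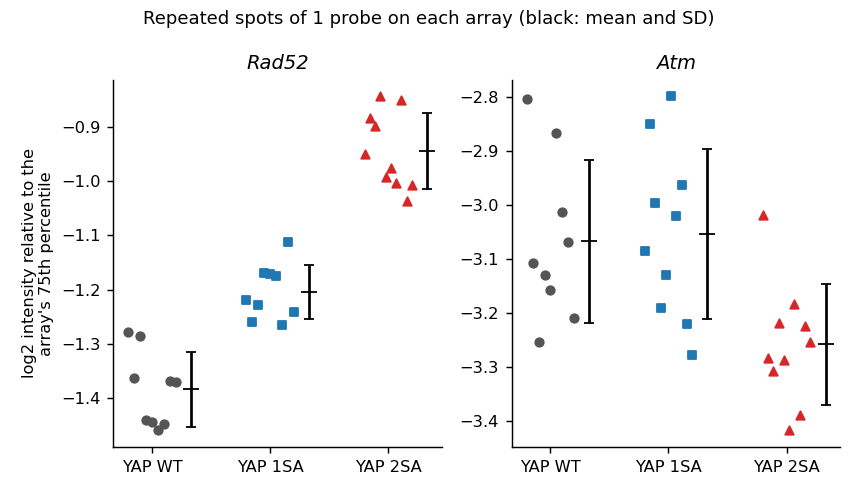
Normalised log2 intensity of each kept spot of the repeated probes of Rad52 (left) and Atm (right), with 9 or 10 spots per array and the mean and SD over spots in black. The Rad52 spots form separate bands with YAP (2SA) highest, and the Atm spots overlap between arrays.

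In the Fanconi core complex, the ubiquitin ligase that marks the FANCD2-FANCI pair, the larger differences were those of Fanca and Fancb. Of the 8 measured genes, 2 (25.0%) were at least 1.5-fold higher in YAP (2SA), beside 3.79% of all genes. The median differences were 0.10 in YAP (1SA) and 0.09 in YAP (2SA). Fanca, a scaffold subunit, had intensities of 97.1, 159 and 275. It was 1.73-fold higher in YAP (1SA) and 2.58-fold higher in YAP (2SA), with differences of 0.79 and 1.37 and a spot SD of 0.12. The order YAP (WT), YAP (1SA), YAP (2SA) had steps larger than the spot error throughout.

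Fancb, which sits beside the catalytic subunit in the complex, read 75.6, 91.4 and 203. Its differences were 0.35 in YAP (1SA) and 1.29 in YAP (2SA), and it was 1.91-fold higher in YAP (2SA) than in YAP (1SA). Fancb was thus high mainly on the YAP (2SA) array. Fancm, the DNA translocase that brings the complex to the fork, read 39.4, 46.0 and 61.9, with differences of 0.30 and 0.52 and a spot SD of 0.20.

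The remaining core genes lay close to YAP (WT). Fancl, the catalytic subunit, read 987, 921 and 1086, and its differences of -0.02 and 0.0021 were under the spot error. Fance, which contacts FANCD2, read 1654, 1453 and 1731, with differences of -0.11 and -0.07. Fancf, an adaptor, read 505, 408 and 588, and was lower in YAP (1SA) by -0.23 and at 0.08 in YAP (2SA). Fancc differed by 0.22 and 0.10, and Fancg by -0.14 and -0.20 with a spot SD of 0.33. The core complex genes therefore did not share a direction.

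The substrate of the core complex is the FANCD2-FANCI pair, which is ubiquitinated at crosslinks. Fanci read 49.9, 71.4 and 82.7, and was 1.51-fold higher in both active YAP livers, with differences of 0.59 and 0.59 and a spot SD of 0.20. Fancd2 read 11.9, 9.76 and 30.9, and only the YAP (2SA) value was well above background. For such a gene, the dim side was taken as its own value or as the lowest well-above-background signal of that array, whichever was higher. By this rule Fancd2 was 2.25-fold higher in YAP (2SA) than in YAP (WT) and 2.59-fold higher than in YAP (1SA). Its spot SD was 0.33 and it passed the filter on the YAP (2SA) array alone, so these folds are not strict bounds.

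The BRCA mediators help the recombination filament replace RPA on single-stranded DNA. Brca2, the main mediator of filament loading, had intensities of 93.2, 129 and 183. Its differences were 0.55 in YAP (1SA) and 0.84 in YAP (2SA), which is 1.79-fold, with a spot SD of 0.14. By the brightest probe of each gene, no other measured mediator was 1.5-fold higher in YAP (2SA). Brip1, a helicase that binds BRCA1, read 31.3, 44.6 and 43.0 and differed by 0.59 in YAP (1SA) and by 0.32 in YAP (2SA). Palb2, which bridges BRCA1 and BRCA2, read 18.4, 16.8 and 23.9, and its differences of -0.05 and 0.24 were under the spot SD of 0.33. The Brca1 probe read 3.15, 3.97 and 2.50 and was not well above background on any array.

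Bard1, the obligate partner of BRCA1, depended on the probe. Its brighter probe read 144, 150 and 147, with differences of 0.14 and -0.10. Its second measured probe read 71.5, 131 and 151, with differences of 0.96 and 0.95, or 1.94-fold and 1.93-fold. The probes thus disagreed by several times the spot SD of 0.14, and another Bard1 probe was not well above background on any array.

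**Figure D3:**
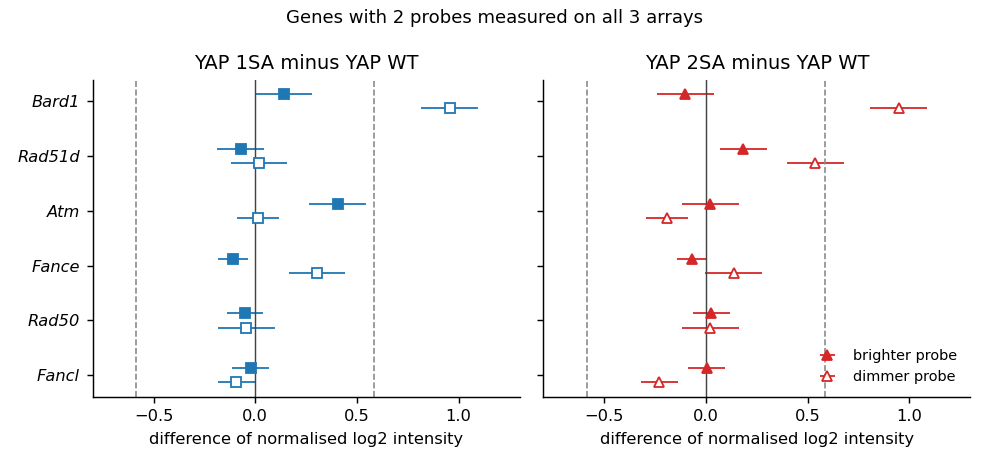
Difference of normalised log2 intensity from YAP (WT) (x axis) for the 6 genes with 2 probes measured on all 3 arrays, with filled symbols for the brighter and open symbols for the dimmer probe and bars of 1 spot SD. The dimmer Bard1 probe lies past the dashed 1.5-fold line in both panels and the brighter one does not, while the Rad50 probes coincide.

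The other genes with a second measured probe differed less between probes. The second Rad51d probe read 89.3, 85.7 and 142, and its difference in YAP (2SA) was 0.54 beside 0.18 for the brighter probe. The second Fance probe gave 0.30 and 0.14, beside -0.11 and -0.07. The probes of Rad50 gave -0.05 and -0.04 in YAP (1SA) and 0.03 and 0.02 in YAP (2SA). For Fancl the second probe gave -0.09 and -0.23. No gene with 2 measured probes other than Bard1 had a probe past 1.5-fold.

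End resection trims the break to single-stranded DNA, and Exo1 and Rbbp8 had the largest differences of its genes in YAP (2SA). The median over the 5 measured genes was 0.17 in YAP (1SA) and 0.28 in YAP (2SA). Exo1, the long-range resection nuclease, read 73.6, 78.3 and 145. It differed by 0.17 in YAP (1SA) and by 0.85 in YAP (2SA), and was 1.60-fold higher in YAP (2SA) than in YAP (1SA). Rbbp8, the CtIP protein that starts resection, read 553, 616 and 855, with differences of 0.23 and 0.49 and a spot SD of 0.09.

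The MRE11-RAD50-NBN complex, which binds the broken end first, showed no common change. Mre11a read 236, 264 and 315, with differences of 0.24 and 0.28. Rad50 read 379, 347 and 424, with differences of -0.05 and 0.03. Nbn read 161, 147 and 157, with differences of -0.05 and -0.17.

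Joint molecule processing resolves the crossed DNA strands after exchange. Blm, the helicase that dissolves them, read 128, 155 and 250, with differences of 0.35 and 0.83, and was 1.77-fold higher in YAP (2SA). Eme1 and Mus81 form a nuclease that cuts them. Eme1 read 50.2, 55.6 and 69.4, with differences of 0.23 and 0.33, and Mus81 read 199, 202 and 230, with differences of 0.10 and 0.07. Within the pair, the Mus81 differences were under its spot SD of 0.12. Msh6, which recognises mismatches and belongs to the set by its listing, read 1212, 1317 and 1558, with differences of 0.20 and 0.23 and a spot SD of 0.08.

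Of the 5 checkpoint and damage sensing genes of the set that were measured, 4 were higher in YAP (1SA) than in YAP (2SA). Their median was 0.33 in YAP (1SA) and 0.02 in YAP (2SA), and the median of YAP (2SA) minus YAP (1SA) was -0.31. The 22 other checkpoint and signalling genes described below did not share this order. Of these, 17 were higher in YAP (2SA) than in YAP (1SA), with a median of 0.11. Chek1, the kinase that ATR activates at stalled forks, read 18.3, 35.8 and 19.9. It was 2.06-fold higher in YAP (1SA), with a difference of 1.05, and differed by -0.01 in YAP (2SA). Its signal was dim, with a spot SD of 0.33, and the difference in YAP (1SA) was 0.28 under normexp.

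Atr, the kinase that senses single-stranded DNA, read 673, 754 and 705, with differences of 0.24 and -0.07. Atm, the kinase that senses double-strand breaks, read 119, 150 and 133 with its brighter probe, with differences of 0.41 and 0.02. Its second probe, spotted 10 times, read 34.7, 33.2 and 33.4 on average and gave 0.01 and -0.19, and its spots overlapped between all 3 arrays. The higher value of Atm in YAP (1SA) thus came from the brighter probe alone.

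H2afx codes for the histone variant that is phosphorylated around a break. It read 1359, 1620 and 1719, with differences of 0.33 and 0.20. Chek2, the kinase downstream of ATM, read 35.7, 40.5 and 51.5, with differences of 0.26 and 0.39 and a spot SD of 0.20. Chek2 was the one checkpoint gene of the 5 that was higher in YAP (2SA) than in YAP (1SA), by 0.14, and this turned to -0.10 under normexp. Clspn, the adaptor through which ATR reaches CHEK1, read 12.8, 11.1 and 21.5 and was well above background in YAP (2SA) only. By the rule used for Fancd2 it was 1.53-fold above YAP (WT) and 1.67-fold above YAP (1SA). These are its plain differences, with a spot SD of 0.33, and are not strict bounds.

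**Figure D4:**
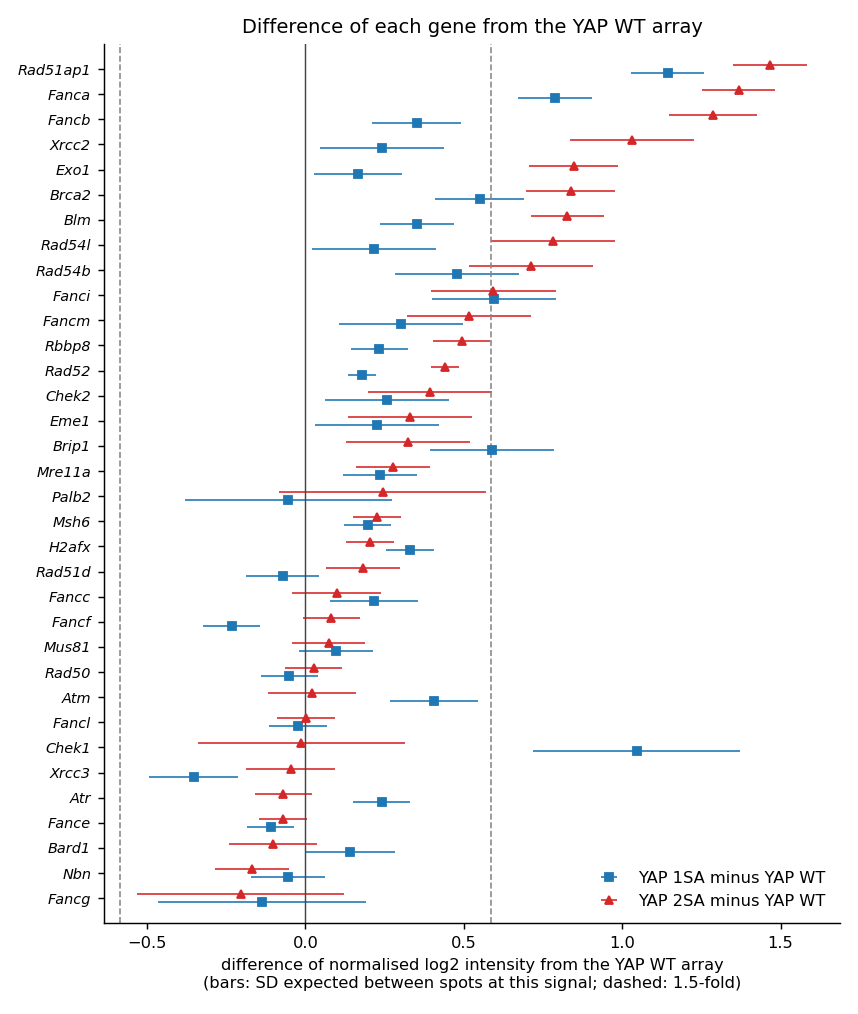
Difference of normalised log2 intensity from the YAP (WT) array (x axis) for the 34 genes, sorted by YAP (2SA), with squares for YAP (1SA), triangles for YAP (2SA), bars of 1 SD between spots at the same signal and dashed lines at 1.5-fold. From Rad51ap1 at the top to Fanci, 10 triangles lie past the right line, and 5 squares do so, among them Chek1, whose triangle lies at -0.01.

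Other genes of the pathway, listed by function, were compared in the same way. Of 39 other recombination and Fanconi genes 33 were measured, with medians of 0.06 in YAP (1SA) and 0.07 in YAP (2SA). In YAP (1SA) 2 of the 33 (6.06%) were at least 1.5-fold higher and 1 (3.03%) was lower, beside 3.08% and 4.67% of all genes. In YAP (2SA) 4 (12.1%) were higher and none lower, beside 3.79% and 3.02% of all genes. Fignl1, which acts on recombination filaments, read 139, 189 and 382, with differences of 0.52 and 1.32. Psmc3ip, a cofactor of strand exchange, differed by 0.76 and 1.06 and Hrob by 0.97 in YAP (2SA), while Rad51b differed by -0.63 in YAP (1SA), and these genes were chosen after their values were seen. The lowest in YAP (2SA) were Slx4 (-0.33) and Zswim7 (-0.30).

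The end joining, mismatch repair and other checkpoint lists held few genes past the threshold, as short lists would at the share of all genes. None of 14 end joining genes was 1.5-fold higher in YAP (1SA) or YAP (2SA), beside 3.08% and 3.79% of all genes. In YAP (2SA), 1 (Lig4, 7.14%) was 1.5-fold lower, beside 3.02% of all genes, and the medians were 0.0009 and 0.05. Their highest were Polq at 0.23 and Parp1 at 0.18, and their lowest Lig4 at -0.60 and Polm at -0.31, all in YAP (2SA). None of 8 mismatch repair genes passed 1.5-fold against YAP (WT), where 3.08% and 3.79% of all genes were higher and 4.67% and 3.02% lower. Their medians were -0.03 and 0.24. Above YAP (WT) were 3 of the 8 in YAP (1SA) and all 8 in YAP (2SA), compared with 49.7% and 43.6% of all genes. Among them were Msh3 at 0.10, Pms2 at 0.33 and Msh4 at 0.56 in YAP (2SA). Of 22 other checkpoint and signalling genes, 1 (4.55%) was 1.5-fold higher in YAP (2SA), close to the 3.79% of all genes. That gene was Timeless at 0.67, followed by Cdc25a at 0.57, and the lowest were Trp53bp1 at -0.47 and Wee1 at -0.28.

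The p53 targets, which respond to DNA damage among other stresses, did not share a direction. Of 18 measured, 1 (5.56%) was 1.5-fold higher and 3 (16.7%) were lower in YAP (1SA), beside 3.08% and 4.67% of all genes. In YAP (2SA) 3 (16.7%) were higher and none lower, beside 3.79% and 3.02% of all genes. Gadd45a differed by 0.48 and 1.36 and Bbc3 by 0.38 and 0.75, and the lowest in YAP (2SA) were Perp at -0.46 and Sesn2 at -0.10. Chosen after their values were seen, Cdkn1a differed by -1.18, Pmaip1 by -0.70 and Plk2 by -0.65 in YAP (1SA), Btg2 by 0.71 in YAP (1SA) and Phlda3 by 0.70 in YAP (2SA).

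Replication and mitosis genes, the main cell cycle groups, were higher beside the repair genes. Of 40 measured replication genes, 6 were at least 1.5-fold higher in YAP (1SA) and 20 in YAP (2SA), with medians of 0.31 and 0.58. The highest in YAP (2SA) were Rrm2, a ribonucleotide reductase subunit, with differences of 1.27 and 1.55, and Dtl with 0.54 and 1.51. The lowest were Mcm10 at -0.44 and Gmnn at -0.11. Of 29 measured mitosis genes, 22 (75.9%) were at least 1.5-fold higher in YAP (1SA) and 19 (65.5%) in YAP (2SA). These shares also stand beside 3.08% and 3.79% of all genes. The medians of the mitosis genes were 0.67 and 0.73. Nuf2 differed by 1.22 and 1.21 and Kif11 by 1.01 and 1.15, and the lowest in YAP (2SA) were Spc24 at 0.11 and Spc25 at 0.19. The repair genes thus had lower medians than both groups on both arrays, and the part of the number of cycling cells in their values was not tested.

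**Figure D5:**
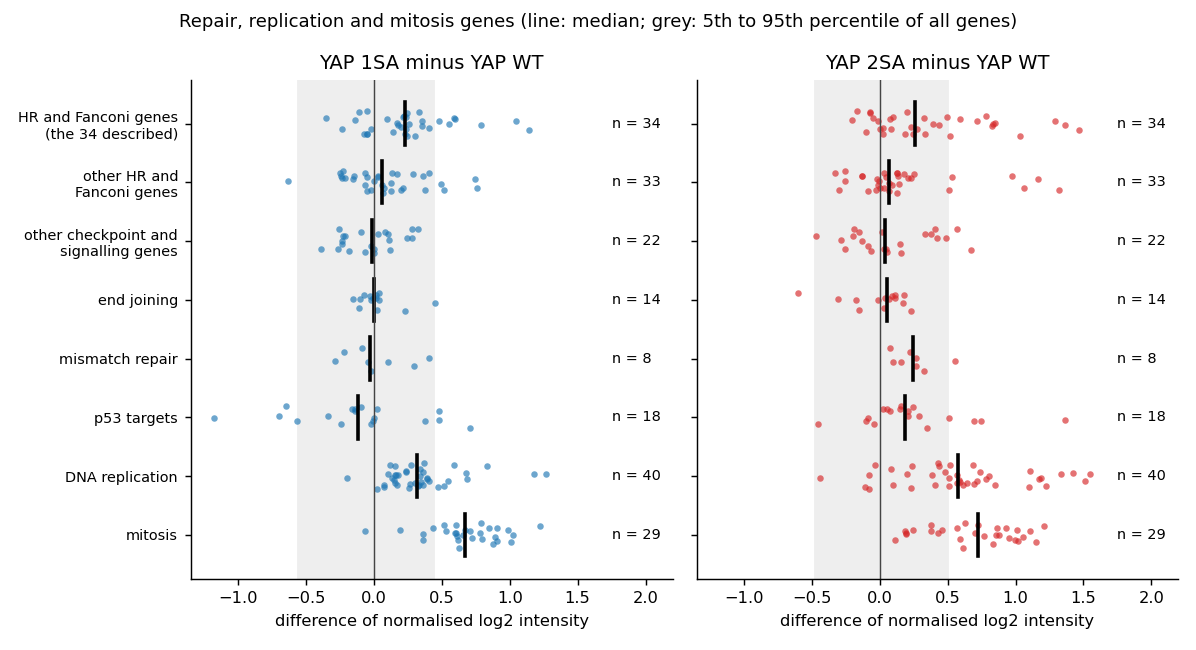
Difference of normalised log2 intensity from YAP (WT) (x axis) for each measured gene of 8 lists, in YAP (1SA) (left) and YAP (2SA) (right), with a black line at the median of the list, n beside it and a grey band from the 5th to the 95th percentile of all named genes (-0.56 to 0.44 and -0.47 to 0.50). The 34 recombination and Fanconi genes (HR, homologous recombination) have a median of 0.26 in YAP (2SA). The medians there are 0.24 for mismatch repair genes, 0.18 for p53 targets and 0.05 for end joining genes, of which Lig4 lies left of the band. Replication and mitosis genes have medians of 0.58 and 0.73.

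Markers of the cell types of the liver give the composition of the samples. RNA was taken from whole liver, so fewer cells of a type and less RNA per cell cannot be told apart. All 13 hepatocyte markers were measured on all 3 arrays, with summed scaled intensities of 6199 in YAP (WT), 6557 in YAP (1SA) and 5454 in YAP (2SA). The 7 measured of 8 Kupffer cell markers summed to 237, 179 and 136, and the 8 of 8 sinusoidal endothelial markers to 85.6, 89.4 and 72.3. For blood cells, the sums were 23.0, 24.7 and 21.4 for 5 of 8 neutrophil and monocyte markers, 43.6, 38.7 and 32.8 for 5 of 9 lymphocyte markers, and 57.2, 93.5 and 70.3 for 6 of 8 red cell lineage markers. The 6 bile duct markers summed to 13.2, 4.37 and 10.9, and the 7 stellate cell markers to 27.6, 18.8 and 18.4. The lymphocyte markers Cd8a and Ncr1 were not well above background on any array. Within these sums single markers differed more, as Ccr2, a monocyte receptor, was higher by 2.33 in YAP (1SA) and 0.85 in YAP (2SA). The part of these cell types in the repair genes was not tested.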

How the data were processed

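Total RNA of whole mouse liver was labelled with Cy3 and hybridised to 3 one-colour Agilent arrays on 1 slide, with 1 array per group as the labels give it. The authors processed the scans with Feature Extraction 10.10.1.1 per the file headers, and the values deposited are linear spot intensities, background-subtracted and detrended but not scaled between arrays. The array design lies on build mm9 per the file headers. The series matrix deposited by the authors holds the same intensity times 1 constant per array (3.02, 3.08 and 2.81 for WT, 1SA and 2SA), whose source was not stated.

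Control spots and spots marked non-uniform or as population outliers (148 to 182 per array) were left out. None of the spots was saturated. Kept spots were averaged per probe on the log2 scale, and the 75th percentile of the array was subtracted on that scale. Measured probes had at least 50% of their kept spots well above background, which held for 28972 to 30784 of 55681 probes per array. RefSeq accessions matched 26762 probes to 20284 symbols of a GRCm38.p6 table, used for names only. A gene was its brightest probe measured on all 3 arrays. The spot error came from 399 probes with repeated spots. The number of arrays limits the precision, and no test or p-value could be computed.

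The members and all lists were chosen with earlier results of these data known. Every member was accounted for. Of other lists the 2 highest and 2 lowest genes in YAP (2SA) minus YAP (WT) were named, and some genes the rule names are not reported here. Other settings tried were scaling by quantiles or by the array median, normexp (offset 50, on median spot and local background signals), the series matrix, no filter and a stricter filter on dim probes, the mean of all measured probes and a 2-fold threshold. The calculation was tested on simulated data. Python 3.11.15, pandas 2.3.3, numpy 2.4.6, R 4.3.3 and limma 3.58.1 were used.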

Additional observations from a re-analysis of the deposited data

How the results depend on the processing

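No gene of the set that was past 1.5-fold changed direction under any alternative. The 639 values of single genes were held to 1 cutoff, 0.1044, the SD of a difference over all repeated spots. Under normexp 45 moved by more and 57 did not, under the mean of all probes 9 moved, and under the other alternatives none did. Scaling by the array median and the series matrix shift every gene of a comparison by 1 constant, and the filter settings kept each single value. Those settings could therefore not show how stable single genes are. The counts of genes past the threshold depended on the setting. At 2-fold, 2 genes were higher in YAP (1SA) and 4 in YAP (2SA) than in YAP (WT), and 0 in YAP (2SA) than in YAP (1SA). Under normexp these counts at 1.5-fold were 1, 4 and 1 (of all genes 1.44%, 2.01% and 3.68%), and 0 genes were lower in YAP (2SA) than in YAP (1SA) (2.26%). Under normexp, Brip1, Fanca, Fanci and Chek1 were no longer past 1.5-fold in YAP (1SA), nor Rad54l, Rad54b, Brca2, Exo1, Fanci and Xrcc2 in YAP (2SA). Normexp adds an offset, which shrinks differences of dim probes by construction, and it also starts from other signal columns. The series matrix gave 3 higher in YAP (1SA) (2.5% of all genes) and 5 higher in YAP (2SA) than in YAP (1SA) (8.34%), and without a filter on dim probes 5 were higher (9.07%) and 2 lower (7.94%) in YAP (2SA) than in YAP (1SA). The stricter filter left 9 genes, of which 0 passed 1.5-fold in any comparison, and the median of YAP (2SA) minus YAP (WT) became 0.082 in place of 0.26. Of all genes past 1.5-fold between YAP (2SA) and YAP (WT), the higher share was 68.8% under normexp in place of 55.7%. No scaling moved the median of all genes by as much as 0.1. No paired analysis was possible because the groups have single arrays and no result came from a test. The spot error is the only error known, it is largest for the dimmest probes (0.33 for 3 of the 34 genes), and all arrays shared 1 slide, so no block for it was fitted.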
